A study of Homo sapiens with 6 samples.

Results

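Cytosolic ribosomal protein genes were examined in A498 cells carrying either a control short hairpin RNA (shcontrol) or one directed at RNF26 (shRNF26), with 3 RNA sequencing libraries in each group. The members were all protein-coding genes with an RPL or RPS symbol, including RPLP0, RPLP1, RPLP2 and RPSA. The ribosomal S6 kinases, pseudogenes and genes of chromosome Y were left out. The rule found 84 genes of 61541 in the table, 52 of the large and 32 of the small subunit. Of these, 79 had a mean of at least 1 CPM (counts scaled to the size of the library) over the 6 libraries and were tested, 49 of the large and 30 of the small subunit, in a fit of 14766 genes.

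A498 is a human kidney cancer line, which the labels describe as clear cell carcinoma, and both groups were grown in the same serum-containing medium. RNF26 is a ubiquitin ligase of the endoplasmic reticulum membrane, and the series title connects it to TSC1, a negative regulator of the growth kinase mTORC1. The labels describe delivery of the hairpins only as transfection and infection. They do not say how many hairpins or clones were used, nor that the replicates were separate cultures, so p-values measure the spread between these libraries, which may be technical.

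Each ribosome is built from a large and a small subunit, and most of its proteins are present as a single copy. Their transcripts are among the most abundant in growing cells. Nearly all of these transcripts begin with a C followed by a run of pyrimidines, the 5′ terminal oligopyrimidine (TOP) motif. Through this motif mTORC1 and the cap-binding protein LARP1 control their translation and stability. Gene counts measure transcript levels and not translation.

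The targeted transcript was depleted as labelled, with 35331, 31901 and 31928 RNF26 counts under shcontrol and 1216, 1274 and 1175 under shRNF26. Libraries held 16682871 to 18021718 gene counts, of which 703617 to 792298 fell on the ribosomal protein genes. The factors of the trimmed mean of M values (TMM), by which the fit scales libraries, differed between groups, at 0.966 to 0.971 in the control and 1.031 to 1.033 in the knockdown libraries. Of 16 kidney and clear cell carcinoma markers, 12 were under 1 CPM, and SLC17A3 and UMOD were among those at 0 in every library. Their summed level was 207 to 217 CPM in the control and 241 to 260 CPM in the knockdown libraries. All 10 squamous epithelium markers had a mean of at least 1 CPM. Of these 2 rose (TP63 and KRT13) and 5 fell, S100A2, SFN and KRT6A among them, with a summed level of 2620 to 2809 CPM in the control and 2024 to 2229 CPM in the knockdown libraries, and their part in the results was not tested. Endothelial and leukocyte markers were under 1 CPM for 4 of 5 genes each and fibroblast markers for 5 of 6. The exceptions were PECAM1 and CD14, which did not pass the test, and COL1A1, which rose (log2 fold change 0.51). COL1A1 had 65.0, 59.0 and 54.6 CPM under shcontrol and 81.0, 87.5 and 85.6 CPM under shRNF26.

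The sequences at the transcription starts show the element that most of these genes share. RefSeq start windows (GRCh38.p14) were found for 67 of the 84 genes. A pyrimidine run of at least 8 bases within 5 bases of the start was present in 50 of the 67 genes, or 74.63%, compared with 13.65% of 27305 genes with a window. The median run was 11 bases in ribosomal protein genes and 4 bases over all genes. The run was present in 71.43% of large subunit and 80% of small subunit genes. The windows below hold 30 bases before and 20 bases from the annotated start on, read 5′ to 3′ on the gene's strand. Capitals mark the pyrimidine run at the start where it is at least 5 bases long. The first set pairs canonical genes with their paralogs, to show how their starts compare.
RPL22, chr1:6199576-6199625, minus strand: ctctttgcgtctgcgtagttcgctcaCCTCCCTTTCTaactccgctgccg
RPL22L1, chr3:170870176-170870225, minus strand: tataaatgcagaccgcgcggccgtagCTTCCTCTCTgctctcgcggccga
RPL26, chr17:8383174-8383223, minus strand: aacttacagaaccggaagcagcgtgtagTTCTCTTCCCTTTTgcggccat
RPL26L1, chr5:172958699-172958748, plus strand: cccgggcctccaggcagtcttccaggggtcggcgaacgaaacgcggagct
RPS27, chr1:153990732-153990781, plus strand: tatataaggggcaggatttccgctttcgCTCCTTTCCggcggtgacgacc
RPS27L, chr15:63157458-63157507, minus strand: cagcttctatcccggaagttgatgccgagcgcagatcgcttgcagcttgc
Of the 5 paralogs with a window only RPL22L1 had such a run, of 10 bases, beside 11 bases in RPL22. The RPL26L1 and RPS27L starts had runs of 2 bases, against 14 and 9 bases in RPL26 and RPS27. The next set holds genes whose share of the ribosomal protein transcripts was larger in the knockdown libraries.
RPL7A, chr9:133348188-133348237, plus strand: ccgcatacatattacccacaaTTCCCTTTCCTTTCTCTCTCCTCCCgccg
RPS6, chr9:19380217-19380266, minus strand: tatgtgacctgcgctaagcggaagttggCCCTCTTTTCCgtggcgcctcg
RPL11, chr1:23691776-23691825, plus strand: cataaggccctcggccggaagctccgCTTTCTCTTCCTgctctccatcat
RPL3, chr22:39319604-39319653, minus strand: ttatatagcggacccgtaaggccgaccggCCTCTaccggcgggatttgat
The last set holds genes whose share was smaller.
RPL12, chr9:127451387-127451436, minus strand: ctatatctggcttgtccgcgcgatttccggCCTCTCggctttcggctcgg
RPL35, chr9:124861938-124861987, minus strand: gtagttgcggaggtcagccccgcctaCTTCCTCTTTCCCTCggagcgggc
RPS21, chr20:62387073-62387122, plus strand: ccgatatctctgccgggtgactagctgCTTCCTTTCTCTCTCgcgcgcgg
RPL7L1, chr6:42879586-42879635, plus strand: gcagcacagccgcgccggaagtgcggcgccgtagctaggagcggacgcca
Both sets hold long and short runs. The longest printed, 25 bases, belongs to RPL7A, and RPL35 and RPS21 of the opposite set have 15 bases each. RPL3 and RPL12, from opposite sets, have 5 and 6 bases. Across the tested genes, the median log2 fold change was -0.12 for the 49 with a run of 8 or more and -0.11 for the 16 with a shorter one. The hexamer CCGGAA, searched on both strands of the 300-base window, was present in 58.21% of the ribosomal protein genes and in 20.1% of all genes, and TATAAA in 10.45% and 13.99%. A match is a description of the letters and not of a bound factor.

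Ribosomal protein transcripts were slightly lower in the knockdown libraries in both subunits. Of 79 tested genes, 44 fell (55.7%), 0 rose and 35 did not pass the edgeR quasi-likelihood test at an adjusted p of 0.05. At an unadjusted p below 0.05, 49 were lower and 1 higher, while DESeq2 called 43 lower and 0 higher and limma 44 and 0. Among all 14766 tested genes, 22.6% fell and 18.9% rose, or 41.4% in either direction. The contrast was smaller beside genes of like level and length. Of 119 other genes of at least 200 CPM and up to 600 coding bases, 56.3% fell and 13.4% rose. Of 44 members within these limits, which were set after values had been seen, 70.5% fell and 0 rose. In bulk libraries, fewer cells with a transcript and less of it per cell cannot be told apart. The median log2 fold change was -0.12 over the members and 0.01 over all tested genes. Single changes were small, with 81% of members within 0.25 of 0 on the log2 scale, against 60.6% of all tested genes.

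The size of this shift depended on the scaling of the libraries. With total counts in place of TMM, 19 members were called lower and 5 higher (RPL22, RPL7A, RPL3, RPL11 and RPS4X), and the median of all tested genes moved up by 0.0909. The split over all genes moved with it, from 2785 higher and 3332 lower to 4449 higher and 2269 lower. Upper quartile factors gave 27 members lower and 2 higher, with 3742 genes higher and 2681 lower over all. The 19 genes called lower under each of the 5 scalings compared were RPL10, RPL12, RPL14, RPL18, RPL22L1, RPL24, RPL28, RPL30, RPL35, RPL36, RPL37, RPL37A, RPL38, RPL7L1, RPS15, RPS15A, RPS16, RPS20 and RPS21. No member was called in opposite directions by 2 of these scalings. A change of scaling shifts all genes by nearly the same amount, at most 0.0909 here, so opposite calls were unlikely from the outset. DESeq2 size factors and TMM without the members shifted the median of all tested genes by only 0.00223 and -6.62e-05.

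**Figure D1:**
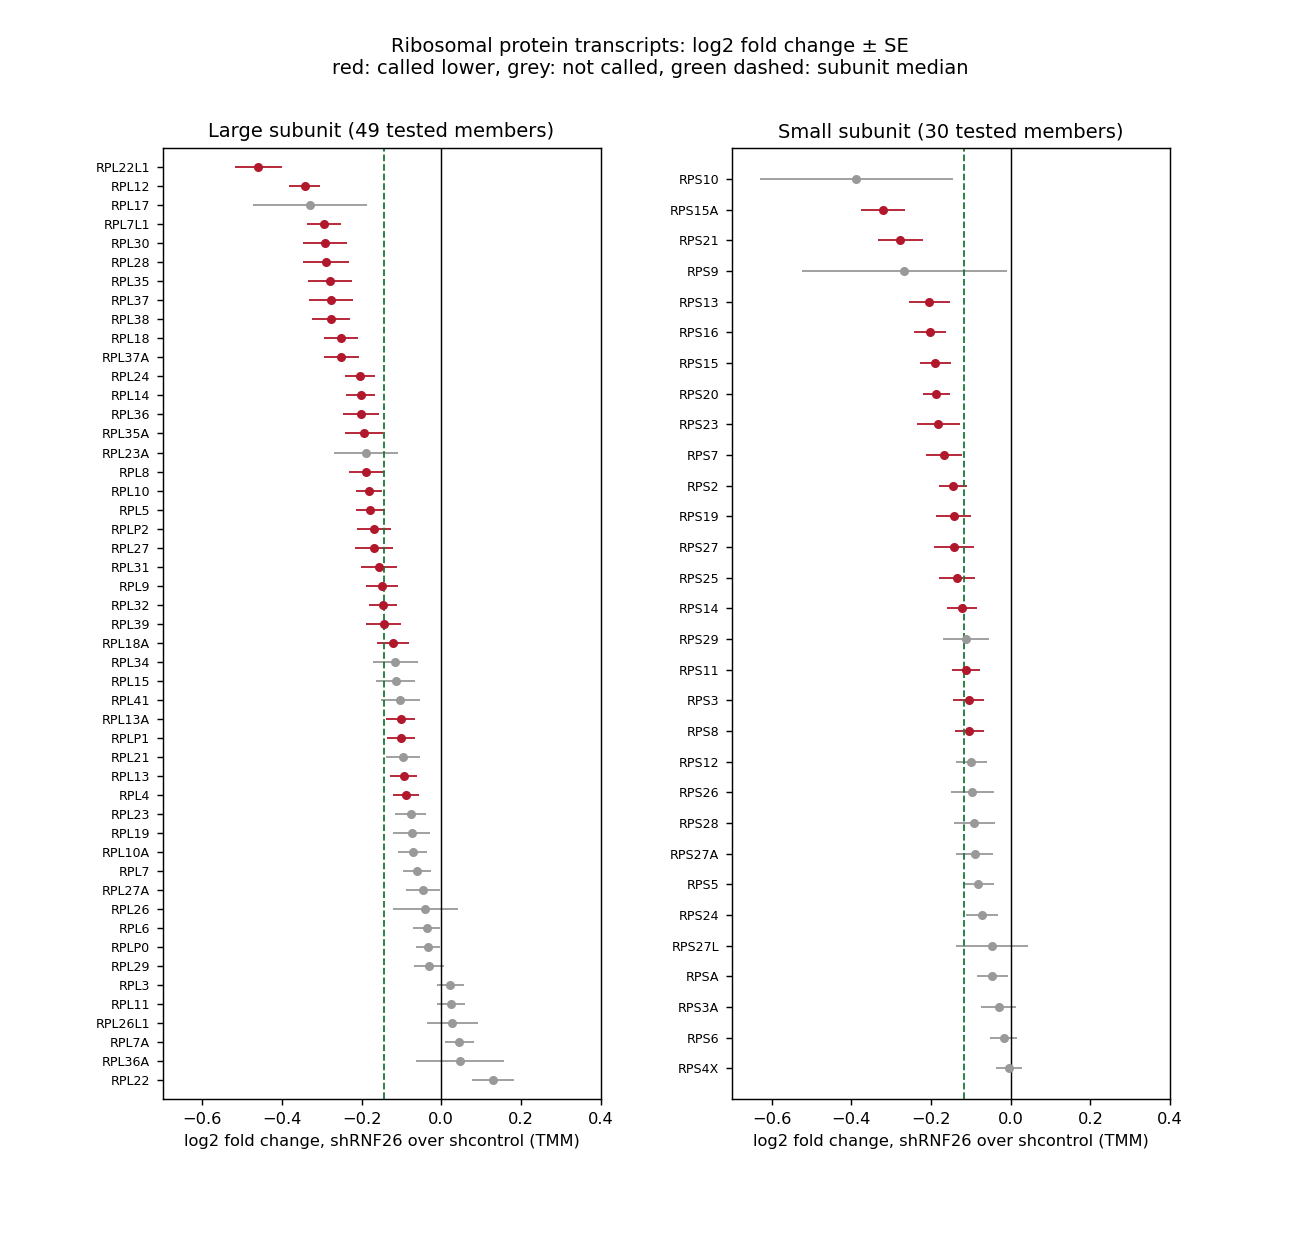
Log2 fold change, shRNF26 over shcontrol with TMM scaling, of the 49 large and 30 small subunit genes (points, bars ± SE; red, called lower; grey, not called; dashed line, subunit median). Most points lie left of 0 in both panels, from -0.46 for RPL22L1 to 0.13 for RPL22, with wide errors for the thinly counted RPS9, RPS10 and RPL17.

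The large and the small subunit had similar medians. In the large subunit 28 of 49 genes fell (57.1%) with a median log2 fold change of -0.14, and in the small subunit 16 of 30 fell (53.3%) with a median of -0.12. The estimate was negative for all 30 small subunit genes and for 43 of 49 large subunit genes. Under total-count scaling the medians were -0.05 and -0.03. The difference between the medians, large minus small, was -0.03 with TMM, and it had the opposite sign without a filter on low counts (0.0067), without control replicate 3 (0.0045) or without knockdown replicate 2 (0.0048).

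The balance of the subunits within a library needs no scaling. Summed large subunit counts were 2.015, 2.018 and 2.049 times the small subunit counts under shcontrol and 2.015, 1.996 and 2.025 times under shRNF26. These ratios overlapped between the groups, at 2.03 ± 0.0191 and 2.01 ± 0.0146 (SD, n = 3). Together the members took 4.40%, 4.33% and 4.50% of the gene counts under shcontrol and 4.33%, 4.36% and 4.22% under shRNF26. The shares also overlapped, with means of 4.41% ± 0.0835 and 4.30% ± 0.0759.

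**Figure D2:**
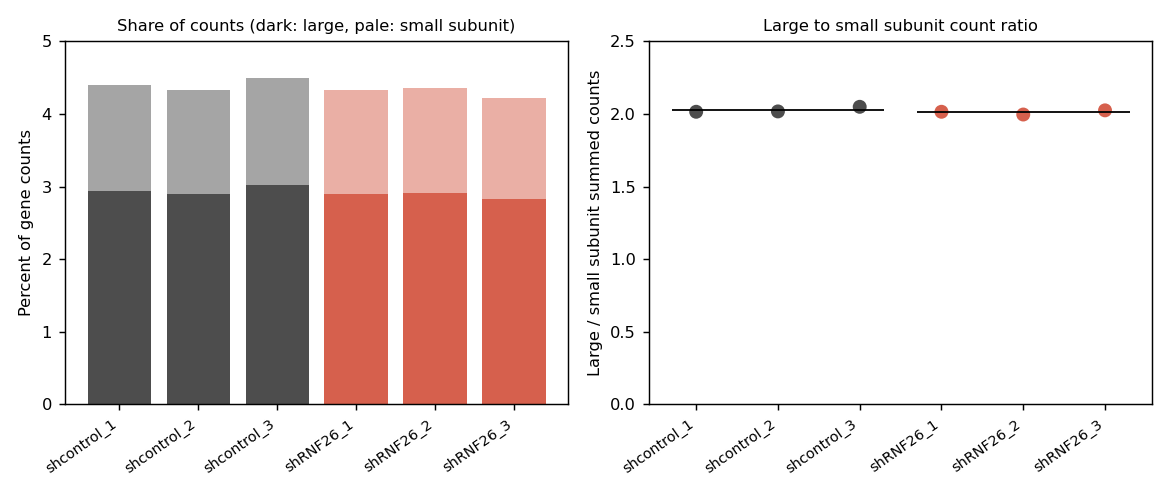
Left, percent of gene counts on large (dark) and small (pale) subunit genes in each of the 6 libraries; right, summed large over small subunit counts per library with the group means as lines. Total shares lie between 4.22% and 4.50% and ratios between 1.996 and 2.049, and the groups overlap in both.

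Levels differed far more between genes than between groups. Per kilobase of coding sequence, the median member had 1081 CPM in the control libraries, and the large and small subunit medians were 1030 and 1087. RPL41, which encodes a very short peptide, was highest at 6186 CPM per kilobase, followed by RPL32 at 4413, the stalk protein gene RPLP1 at 3182, RPL35 at 3010 and RPL8 at 2732. The place of RPL41 rests on the division by coding length, which is 75 bases in a transcript of 469. By CPM alone it ranked 291 among the tested genes. Of the 500 genes with the most counts, 59 were members. At the other end, 10 tested members were under 100 CPM. RPS9 had 37, 26 and 30 counts under shcontrol and 28, 31 and 23 under shRNF26. RPS10 had 40, 34 and 43 counts against 28, 39 and 28. RPS18, with 1 to 8 counts per library, was below the filter and not tested. Products of these 3 genes are constituents of the small subunit, and the sources used here do not give how reads that match several genes were counted.

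Counts on pseudogene copies were small overall and large for a few members. The 1599 pseudogene rows matched to members held 3.6% of the counts of members and pseudogenes together, and over 50% for RPL17, RPL36A, RPS10 and RPS18. RPS18 had 1 to 8 counts per library beside 210 to 299 on the copy RPS18P5. RPL36A had 148 to 177 beside 1384 to 1548 on RPL36AP37, and RPL17 had 169 to 298 beside 313 to 710 on RPL17P7. The values of these 4 genes are uncertain. With pseudogene counts added, 45 members were called lower and 0 higher, and the log2 fold change of RPL36A was -0.12 in place of 0.05.

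The genes that fell most came from both subunits. RPL22L1, a paralog of RPL22, had 48.8, 50.5 and 51.5 CPM under shcontrol and 36.1, 36.4 and 37.1 CPM under shRNF26. All knockdown values lay below all control values, and the gene fell 1.38-fold (log2 fold change -0.46 ± 0.058 SE, adjusted p = 3.98e-06 by edgeR). RPL12, which sits at the base of the stalk where elongation factors dock, had 648, 669 and 703 CPM against 530, 518 and 545 CPM (log2 fold change -0.34 ± 0.038 SE, adjusted p = 7.5e-07 by edgeR). Its groups also stood apart, with the highest knockdown library more than 100 CPM below the lowest control library.

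RPS15A, a small subunit protein, fell from 85.9, 87.7 and 96.5 CPM to 74.5, 72.9 and 68.9 CPM (log2 fold change -0.32, SE 0.055). RPL7L1, a nucleolar paralog of RPL7 with a role in ribosome assembly, fell from 205, 211 and 222 CPM to 175, 170 and 175 CPM (log2 fold change -0.29, SE 0.043). The other 6 of the 10 largest falls lay between -0.29 and -0.28 and were those of RPL30, RPL28, RPL35, RPL37, RPL38 and RPS21. For these the libraries of a group were less alike. RPL35 had 1201, 1081 and 1050 CPM against 922, 995 and 830 CPM, and RPS21 had 467, 451 and 443 against 395, 400 and 327 CPM. Knockdown replicate 3 was the lowest library for both genes. The 10 genes were called lower in every one of the 17 other settings tried.

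**Figure D3:**
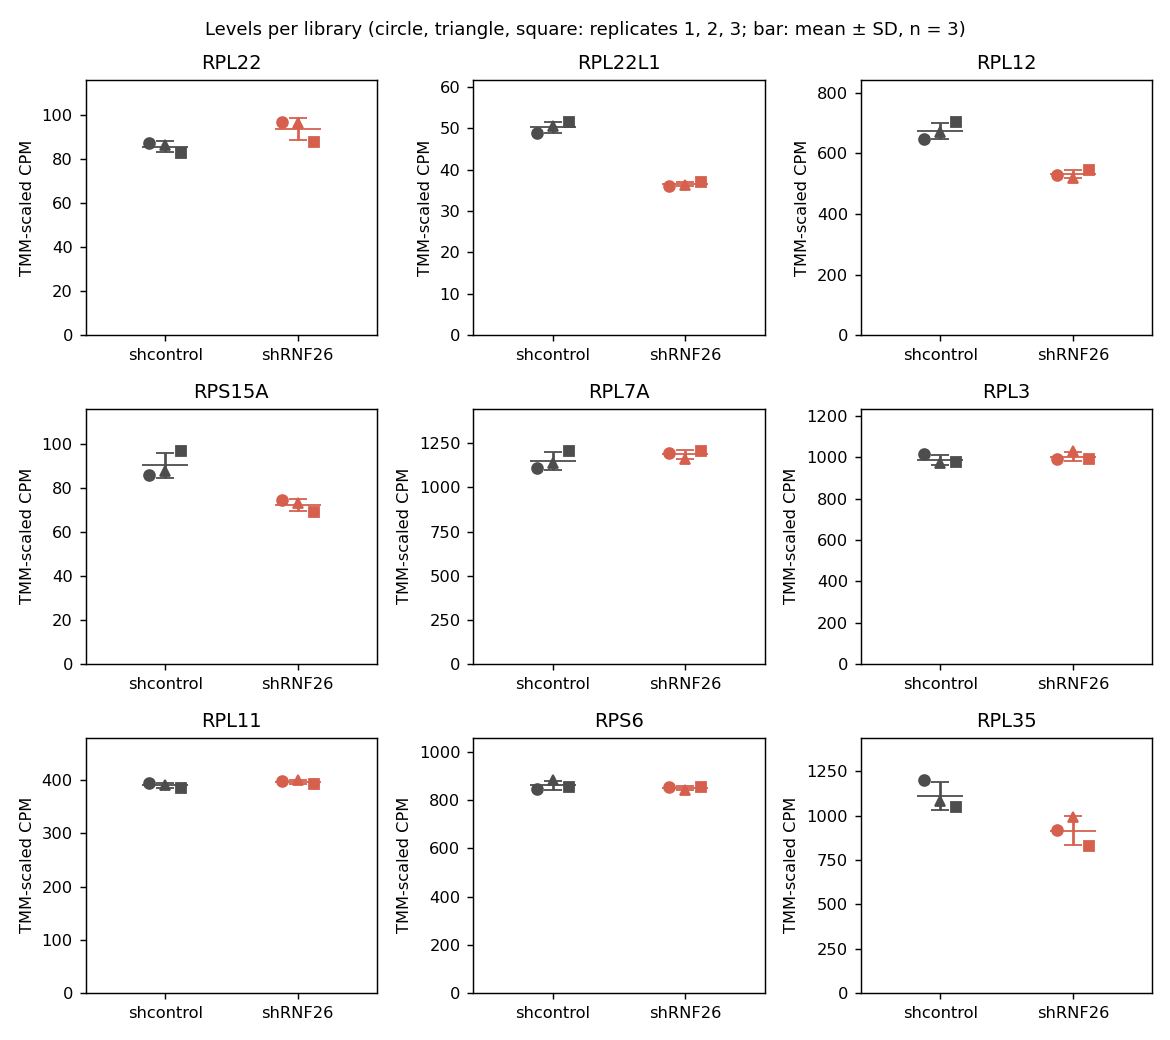
TMM-scaled CPM of 9 members in each library (circle, triangle and square for replicates 1, 2 and 3; bars, mean ± SD, n = 3). RPL22L1, RPL12, RPS15A and RPL35 are lower in all knockdown libraries, RPL22 is slightly higher, and RPL7A, RPL3, RPL11 and RPS6 overlap between groups.

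RPL22 and RPL22L1 showed values in opposite directions. RPL22 is dispensable for translation in many cells, and its protein is known to bind the RPL22L1 transcript and lower its level. RPL22 had 87.4, 86.7 and 83.0 CPM under shcontrol and 96.8, 96.7 and 87.8 CPM under shRNF26. The groups did not overlap, but knockdown replicate 3 lay only just above the highest control library, and the gene did not pass (log2 fold change 0.13 ± 0.052 SE, adjusted p = 0.0509 by edgeR). It was called higher in 7 of 17 other settings, at 0.22 with total counts, 0.18 with upper quartile factors and 0.18 without knockdown replicate 3. Within a library, RPL22L1 had 0.558, 0.582 and 0.620 counts per RPL22 count under shcontrol and 0.373, 0.377 and 0.422 under shRNF26. This ratio, which no scaling alters, was 0.587 ± 0.0316 against 0.391 ± 0.0271 (SD, n = 3), with every knockdown library below every control library. RPL22 overlaps RNF207 on the opposite strand, 13.8% of its counts and those of its copies together lay on pseudogenes, and the sources used here do not give the strand setting. Whether the values of these genes are linked was not tested.

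Of the other tested paralogs, RPL7L1 fell, as given above, and RPS27L and RPL26L1 did not pass. RPS27L, a p53-inducible paralog, had 19.99, 19.1 and 23.4 CPM against 21.2, 19.3 and 20.01 CPM, which overlapped (log2 fold change -0.05, edgeR adjusted p = 0.706). RPS27 itself, at 402, 407 and 474 CPM against 393, 378 and 391 CPM, fell (log2 fold change -0.14, edgeR adjusted p = 0.0307), a call lost in 6 of the 17 other settings. Control replicate 3 stood apart for RPS27, and without it the log2 fold change was -0.07. Within a library, RPS27L had 0.0498, 0.0470 and 0.0494 counts per RPS27 count under shcontrol and 0.0539, 0.0511 and 0.0512 under shRNF26. Every knockdown ratio lay above every control ratio, at 0.0520 ± 0.00158 against 0.0487 ± 0.00153 (SD, n = 3). The gap was narrow, from 0.0498 to 0.0511, with only 314 to 384 RPS27L counts per library, and this ratio was not tested. RPL26L1 had 35.6, 35.6 and 36.9 CPM against 34.6, 37.6 and 37.9 CPM, and RPL26 itself 32.6, 32.2 and 34.6 CPM against 35.7, 32.9 and 28.0 CPM, and neither passed. RPL26L1 was above RPL26 in every library but knockdown replicate 1. RPL3L, known from heart and skeletal muscle, had 0 to 8 counts per library. RPL39L had 1 count in 1 library and RPL10L 0 in all 6, which allows up to 0.166 to 0.180 CPM, and both are known from testis.

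Among the stalk proteins, which recruit and activate translation factors, RPLP1 and RPLP2 fell with log2 fold changes of -0.10 and -0.17 (SE 0.034 and 0.043), and RPLP0 had -0.03 and did not pass. RPLP0 was steady within groups, at 1577, 1564 and 1564 CPM against 1524, 1522 and 1549 CPM, and with TMM scaling the groups did not overlap. The direction of this difference depended on the scaling. With total counts the log2 fold change of RPLP0 was 0.06, and it did not pass there either. RPL5 and RPL11 enter the ribosome together with 5S ribosomal RNA, and free of it they bind MDM2. RPL5 fell from 819, 837 and 807 CPM to 746, 737 and 693 CPM (log2 fold change -0.18 ± 0.037 SE, adjusted p = 0.000651 by edgeR), while RPL11 had 396, 391 and 385 CPM against 398, 401 and 393 CPM (log2 fold change 0.02, edgeR adjusted p = 0.613). The control and knockdown ranges were apart for RPL5 and overlapped for RPL11. Near the catalytic centre and the exit tunnel, RPL10 fell by 0.18 and RPL4 by 0.09 on the log2 scale, and RPL3 had 0.02 and did not pass. RPL13A, which also has a role outside the ribosome in translational silencing, fell by 0.10.

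RPS2, RPS3, RPS10 and RPS20 encode small subunit proteins that are ubiquitylated when ribosomes stall. RPS20 fell from 823, 819 and 799 CPM to 718, 722 and 704 CPM (log2 fold change -0.19, SE 0.033), with little spread within groups. RPS2 fell by 0.14 and RPS3 by 0.11 on the log2 scale, and RPS10, at about 2 CPM in both groups, had -0.39 with an SE of 0.24 and did not pass. RPS19, the gene most often mutated in Diamond-Blackfan anaemia, fell by 0.14. RPS6, the substrate of the S6 kinases downstream of mTORC1, had 846, 883 and 856 CPM against 856, 842 and 855 CPM, which overlapped (log2 fold change -0.02, edgeR adjusted p = 0.700). RPS4X, RPSA, RPS26 and RPS27A, the last made as a fusion with ubiquitin, had log2 fold changes of -0.0035, -0.05, -0.10 and -0.09 and did not pass. The calls of RPL13A, RPL4, RPS3 and RPS19 were lost in 5 to 7 of the 17 other settings and that of RPLP1 in 4, total-count scaling among them for each (log2 fold changes RPL13A -0.01, RPL4 0.0025, RPS3 -0.01, RPS19 -0.05 and RPLP1 -0.01). RPL5, RPLP2 and RPS2 lost their calls under total-count scaling alone, at -0.09, -0.08 and -0.05.

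To see which genes changed their part of the ribosomal protein transcripts, the fit was repeated with the summed counts of all members as the library size. A value of 0 then means that a transcript kept its share, whatever the scaling of the rest. Of 79 genes, 6 took a larger share, 12 took a smaller share and 61 did not pass. Over all 14766 tested genes on this scale, 34.6% were higher and 13.1% lower, or 47.7% in either direction. The percentage of members called lower was close to that of all genes, and the percentage called higher was well below it. In the large subunit 4 genes were higher and 10 lower of 49, and in the small subunit 2 were higher and 2 lower of 30.

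RPL22 gained most, with a log2 change of 0.26 in its share (SE 0.057, edgeR adjusted p = 0.000514). RPL7A followed at 0.17, RPL11 and RPL3 at 0.15, RPS4X at 0.12 and RPS6 at 0.11. With TMM scaling none of these 6 passed the test in either direction. RPL22L1 lost most, at -0.33 (SE 0.066, edgeR adjusted p = 0.000132), then RPL12 at -0.22, RPS15A at -0.19, RPL7L1, RPL30 and RPL28 at -0.17, RPL35, RPS21, RPL38 and RPL37 at -0.15, RPL18 at -0.13 and RPL37A at -0.12. All 12 were also called lower with TMM scaling. The 2 fits use the same counts and differ by a nearly constant shift. The median of all tested genes was 0.13 on the share scale and 0.01 with TMM. The TMM calls of the 6 and the 12 were therefore likely from the outset and are not a second line of evidence.

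The calls on shares were not equally stable. RPL22, RPL7A, RPL11 and RPL3 among the 6, and RPL22L1, RPL12, RPS15A and RPL7L1 among the 12, were called in all 9 other settings of this fit. Without knockdown replicate 3, 5 genes in place of 12 took a smaller share, and RPS21 moved from -0.15 to -0.08 and RPL30 from -0.17 to -0.10. Without control replicate 3, RPL37 moved from -0.15 to -0.07, and without control replicate 1 RPL28 moved from -0.17 to -0.09 and RPL35 from -0.15 to -0.09. The call of RPS6 was lost in 7 of the 9 settings, that of RPL18 in 5 and those of RPL28 and RPS4X in 4.

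**Figure D4:**
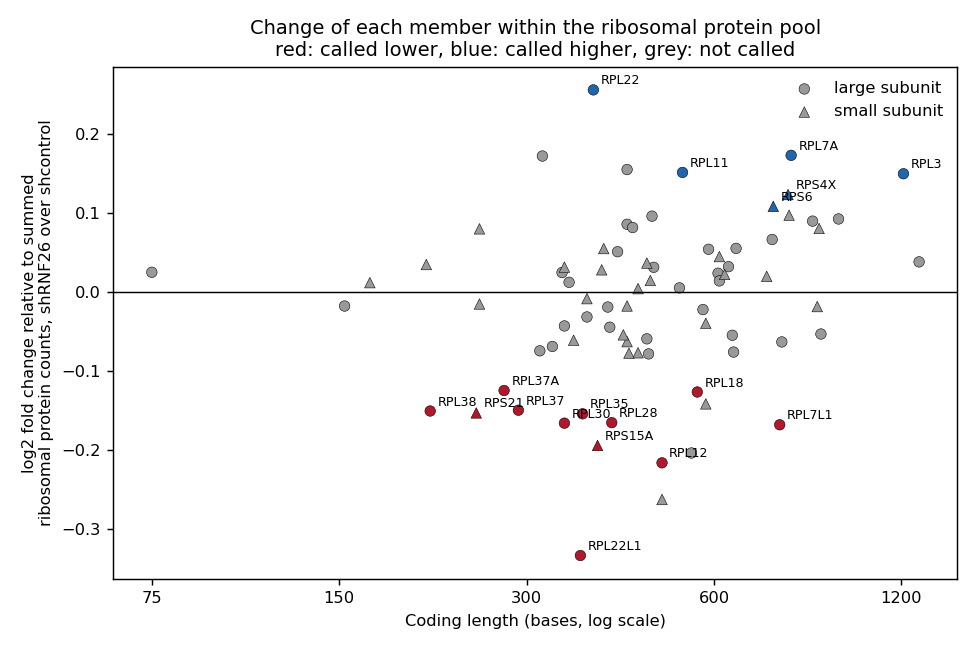
Log2 change in each tested member's share of the summed ribosomal protein counts, shRNF26 over shcontrol, against coding length in bases on a log axis (circles, large subunit; triangles, small subunit; blue, called higher; red, called lower; grey, not called). RPL22 is highest at 0.26 and RPL22L1 lowest at -0.33, and 5 of the 6 blue points lie above 500 bases.

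The change varied with coding length across members, and so did deviations between libraries of a group. Among the 66 members with a mean of at least 200 CPM, the log2 fold change and the log2 coding length had a Pearson r of 0.41 (Spearman rho 0.49). Over all 79 members these were 0.21 and 0.28, and over 12269 other genes 0.12 and 0.13. These are correlations across genes, which share libraries and are not independent replicates. For the 66 members, deviations of single libraries from their group mean also correlated with log2 coding length. Pearson r was 0.086, 0.455 and -0.305 for control replicates 1, 2 and 3. For knockdown replicates 1, 2 and 3 it was -0.281, -0.171 and 0.274. The part of such library differences in the relation was not tested. Of 56 members with a coding length up to 600 bases 58.9% fell (median log2 fold change -0.15), and of 23 longer ones 47.8% (median -0.09). With both limits, at least 200 CPM and up to 600 bases, 31 of 44 members fell (70.5%, median -0.15), and of 119 other genes 56.3% fell and 13.4% rose, with a median of -0.13. Among 934 other genes of at least 200 CPM, 43.9% fell and 21.4% rose, with a median of -0.07, and among the 66 members of that level 62.1% fell, with a median of -0.13. These limits on level and length were set after values had been seen.

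Between 2 libraries of a group, chi-square over its degrees of freedom was 1.84 to 3.19 for all genes, above the value of 1 that counting noise alone gives. For the tested members alone it was 6.68 to 32. At 200 CPM or more, the log2 deviations of the members from their group mean had an SD of 0.0263 to 0.0724 per library, and those of 934 other genes 0.0262 to 0.0574. Among members of at least 200 CPM, the deviation of control replicate 1 from its group mean moved with the coding GC content (Pearson r 0.61 across 66 genes), and that of control replicate 3 moved the other way (-0.38). The log2 fold change itself had an r of -0.07 with GC content. The part of base composition in the results was not tested. RPL23A had the widest spread of the abundant members, at 340, 332 and 453 CPM under shcontrol against 324, 312 and 351 CPM, and did not pass (log2 fold change -0.19). Without control replicate 3 its log2 fold change was -0.04, and it was called lower in 5 of the 17 other settings.

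Genes that work with the ribosomal proteins gave counts in both directions. FAU, which encodes a ribosomal protein fused to a ubiquitin-like domain, fell by 0.25 on the log2 scale, and RPL36AL, a paralog of RPL36A, fell by 0.14. Of 15 other tested transcripts known for a TOP motif 6 fell (40%), 0 rose and 9 did not pass, with a median of -0.06. Over all tested genes 22.6% fell. Most of these transcripts were abundant, and of 934 genes of at least 200 CPM outside the members 43.9% fell, with a median of -0.07. The elongation factor gene EEF2 fell by 0.23, BTF3 by 0.21, NPM1 by 0.20 and EEF1B2 by 0.16. EEF1A1, the most abundant of them, had 3864, 3977 and 4044 CPM against 3911, 3877 and 4099 CPM and a log2 fold change of 0.00027.

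Of 14 genes that control TOP messages or act as S6 kinases, 4 rose (28.6%) and 5 fell (35.7%). Over all tested genes 18.9% rose and 22.6% fell. TIA1, an RNA-binding repressor of TOP messages, rose by 0.34 on the log2 scale and MTOR, the kinase itself, by 0.23. LARP1B fell by 0.58 and the translation repressor EIF4EBP1 by 0.43. LARP1 had 0.09 and did not pass. Of 12 escorts and assembly factors 6 fell (50%), 0 rose and 6 did not pass. BCCIP, a chaperone of RPL23, had -0.24, ZNF622 -0.24 and LTV1 -0.22.

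Of 14 genes that sense collided ribosomes or ubiquitylate the small subunit, 6 fell (42.9%) and 2 rose (14.3%), against 22.6% and 18.9% of all tested genes. ZNF598, the ligase that marks RPS10 and RPS20 on collided ribosomes, had 111, 107 and 105 CPM under shcontrol and 73.8, 77.8 and 74.3 CPM under shRNF26, and the groups were far apart (log2 fold change -0.51 ± 0.048 SE, adjusted p = 7.29e-08 by edgeR). PELO and HBS1L, which release stalled ribosomes, fell by 0.36 and 0.29. EDF1, which binds collided ribosomes, fell by 0.24. NEMF, of the ribosome quality control complex, rose by 0.27. The medians of these 3 lists were -0.04, -0.14 and -0.14, against 0.01 over all tested genes.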

How the data were processed

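RNA was sequenced from 6 libraries, 3 per group, made with a directional kit per the labels' protocols. The authors deposited 1 table of whole-number gene counts, although its name refers to FPKM, and every value column was used. The submitters' processing notes give hg19; the sources used here do not give the aligner, counting program, annotation or strand setting. Of the gene IDs, 61369 were named through the supplied list of gene names and 159 more through GENCODE 29. GENCODE 29 also gave coding lengths and overlaps, and RefSeq (GRCh38.p14) the start windows. Because these builds differ from that of the counts, no coordinate was matched to the counts. Left out were 2 blank rows with 0% of the counts.

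Genes with a mean of at least 1 CPM (99.7% of counts) were fitted with the two-sided quasi-likelihood F test of edgeR 4.0.16 in R 4.3.3, with TMM scaling and Benjamini-Hochberg adjustment over 14766 genes at 0.05. CPM are TMM-scaled. Standard errors were derived from F, as the size of the log2 fold change divided by its square root. A second fit used the summed member counts as library size. A single count (1) equals 0.0555 to 0.0599 CPM of total counts, and where 0 were found up to 3 are possible, which covers counting error only. Other settings were 4 scalings, DESeq2 1.42.0, limma 3.58.1 on log2(CPM + 1), a robust fit, other filters, a replicate block, pseudogene counts added and leaving out each library. The fit was tested on simulated data.

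The members and lists were chosen with earlier results of these data known. Named were members by role, all paralogs, the 10 called members with the largest changes in each direction, the 5 highest and 5 lowest tested levels per coding length, members below the filter, RNF26 and up to 4 called genes per list. RPL23A, EEF1A1, LARP1 and those genes listed by scaling or by the second fit that the rule does not name were chosen after their values were seen. A few genes that the rule names are not reported here.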

Additional observations from a re-analysis of the deposited data

How the results depend on the processing

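Each subunit's median, the count ratio and the share of counts stayed on the same side of 0 in the settings tried. Members called higher, 0 with TMM, numbered 5 with total counts, 2 with upper quartile factors and 1 each with DESeq2 size factors, a robust fit, a minimum of 5 CPM and the replicate block, and RPL22 was that 1. Members called lower, 44 with TMM, numbered 19 with total counts and 27 with upper quartile factors. The large subunit median was -0.0537 and -0.0910 and the small -0.0265 and -0.0640 under these 2 scalings. Leaving out 1 library gave 32 to 50 lower, 0 to 1 higher (1 without knockdown replicate 3), a large median of -0.155 to -0.111 (the last without control replicate 3) and a small median of -0.144 to -0.0961. On the share scale it gave 4 to 8 higher and 5 to 13 lower (5 without knockdown replicate 3). The change in the count ratio ranged from -0.0155 to -0.0031 (log2) and in the share of counts from -0.145 to -0.0622 percentage points.

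Single log2 fold changes turned to positive with total counts for RPLP0 (0.0565), RPL4 (0.0025), RPS6 (0.0728), RPS27A (7.5e-05), RPSA (0.0451), RPS4X (0.0873), RPS27L (0.0432) and RPL26 (0.0509). With upper quartile factors this held for RPLP0 (0.0191), RPS6 (0.0354), RPSA (0.0076), RPS4X (0.0499), RPS27L (0.0058) and RPL26 (0.0135). RPS4X was also positive at a minimum of 5 CPM (0.0049), without control replicate 3 (0.0034) and without knockdown replicate 1 (0.000285; lowest -0.0140, without control replicate 1), RPS27L without control replicate 3 (0.0387; lowest -0.107, without control replicate 2) and RPL26 without knockdown replicate 3 (0.0520). RPL36A was negative with pseudogene counts added (-0.12). The cause was not tested.

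Same-numbered libraries did not deviate together (correlations 0.011, -0.0272 and 0.0934), and not every library correlated best with its own number. The replicate block gave 49 members lower and 1 higher, and on the share scale 10 lower and 4 higher. Precision is limited for RPS9, RPS10, RPS18, RPL17 and RPL36A by few counts.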
